A study of Arabidopsis thaliana with 6 samples.

Results

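CHH methylation was examined at ERT14 (AT2G01422), ERT7 (AT3G28899), ERT9 (AT5G24240) and the pseudogene AT3G30844, 4 of the 37899 annotated genes of Arabidopsis thaliana. They are loci that the study examined individually, and each was taken with 2000 bp on both sides. The question was where within each locus methylation was lost without NRPD1 and where it came back. Whole-genome bisulfite sequencing, which reads unmethylated cytosines as T, was done on above-ground tissue of 2.5-week-old Col-0 plants kept in soil under days of 16 h light and 8 h dark. All plants carried nrpd1-3, a null T-DNA allele of NRPD1, the largest subunit of RNA polymerase Pol IV. The 3 groups, with 2 libraries each, carried no transgene (nrpd1-3), NRPD1 without its carboxy-terminal DeCL domain (the nrpd1dDeCL transgene, here NRPD1ΔCTD) or full-length NRPD1 (NRPD1FL). Both transgenes used the native NRPD1 promoter and a FLAG tag. Wild-type plants were not analysed here, and NRPD1FL served as the reference.

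Libraries held 12654903 to 13819039 CHH cytosines with at least 5 reads, at a mean of 15.2 to 16.33 reads per cytosine. The sample titles of the NRPD1FL group name NRPE1, whereas the transgene field names NRPD1, and the field was followed. Reads per cytosine over the NRPD1 gene, relative to the genome mean of the library, were 2.12 and 2.03 in NRPD1FL and 1.69 and 1.75 in NRPD1ΔCTD, against 1.29 and 1.27 in nrpd1-3. Over NRPE1 they were between 0.749 and 0.831 in all 6 libraries, so only NRPD1 had more reads in the lines with a transgene.

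In RNA-directed DNA methylation, Pol IV transcripts are copied into double-stranded RNA and diced into small interfering RNAs, which guide the methyltransferase DRM2 to matching DNA. CHH methylation (H is A, C or T) is not copied by a maintenance enzyme that reads the opposite strand. It is therefore renewed after each replication, by DRM2 at targets of this pathway and by CMT2 in much of the heterochromatin. CMT2 prefers CAA and CTA among CHH sites.

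The sequences below come from the stretches in which methylation was lost, printed on the strand of each gene from 5′ to 3′. For ERT14 and AT3G30844 the whole stretch is shown, and for ERT7 and ERT9 the 30 bases with the most methylated cytosines. A capital C is a CHH cytosine with a level of at least 20% in the pooled NRPD1FL reads, and a capital G marks such a cytosine on the opposite strand. Bases come from the RefSeq TAIR10.1 assembly, and levels from the reads.
ERT14, chr2:184001-184300, plus strand: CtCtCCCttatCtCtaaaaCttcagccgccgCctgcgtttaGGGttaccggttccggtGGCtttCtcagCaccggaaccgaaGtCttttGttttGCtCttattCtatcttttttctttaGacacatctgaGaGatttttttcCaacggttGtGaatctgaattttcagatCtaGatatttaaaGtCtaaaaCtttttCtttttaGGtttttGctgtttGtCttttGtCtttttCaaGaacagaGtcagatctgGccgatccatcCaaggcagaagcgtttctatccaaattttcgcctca
ERT7, chr3:10902268-10902297, plus strand: CttttCCtttCtaGGtttttGctgCttGtC
ERT9, chr5:8234115-8234144, minus strand: GaCttaGttaCCactgtttCtCtCtCtCCC
AT3G30844, chr3:12603101-12603300, minus strand: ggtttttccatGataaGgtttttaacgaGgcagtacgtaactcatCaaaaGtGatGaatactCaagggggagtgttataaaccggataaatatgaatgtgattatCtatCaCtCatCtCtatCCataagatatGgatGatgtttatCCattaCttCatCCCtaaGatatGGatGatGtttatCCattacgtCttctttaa
Capitals occur on both strands in all 4 stretches. Within the 30 ERT9 bases no cytosine was listed in all 6 libraries. In nrpd1-3 replicate 2 none of the gene strand was listed, so the loss was not measured at each capital. The capitals rest mostly on NRPD1FL replicate 1, with 26 listed cytosines in the bin 8234101 to 8234200 against 6 in replicate 2. In the ERT14 stretch 48 of 64 CHH cytosines reached 20%, and in the AT3G30844 stretch 33 of 45 with reads in NRPD1FL did.

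All 4 loci had lower CHH methylation in nrpd1-3 than in NRPD1FL, and each had a stretch of 200 or 300 bp in which the difference was at least 10 percentage points. At AT3G30844 the mean was also higher in NRPD1FL in most measured bins outside that stretch. Of 83 windows of 300 bp tested at the loci, 8 were called lower in nrpd1-3 than in NRPD1FL, against 2.43% of all 417722 windows tested. NRPD1ΔCTD was called higher than nrpd1-3 in 6 of the 83, against 1.49% of all windows. It was called lower than NRPD1FL in 5 of the 83, against 0.546%. No window at the loci was called in the opposite direction, for which the shares of all windows were 0.0182%, 0.00958% and 0.017%. Calls used a likelihood-ratio test on pooled reads, with an adjusted p of at most 0.01 and a difference of at least 10 percentage points. Windows overlap, and the 3 comparisons share libraries.

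The pooled test does not use the spread between libraries. Limma on arcsine-transformed levels and an F test with overdispersion do, and neither called any window in the genome, at the loci or elsewhere. At an unadjusted p under 0.05 and a difference of 10 points, limma had 9954 windows lower in nrpd1-3 than in NRPD1FL, 6032 higher in NRPD1ΔCTD than in nrpd1-3 and 1924 lower in NRPD1ΔCTD than in NRPD1FL. The F test had 8554, 4904 and 1130. For the windows called at the loci, unadjusted p-values ran from 6.13e-05 to 0.35 by limma and from 0.00137 to 0.301 by the F test. The adjusted p-values given for windows below are those of the pooled test, which counts reads and not libraries.

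To place the loss, levels were computed in 100 bp bins with at least 5 listed cytosines in every library. A bin counted as lost when both nrpd1-3 libraries were below both NRPD1FL libraries and the means differed by at least 10 points. Lost bins numbered 3 of 28 at ERT14, 4 of 18 at ERT7, 2 of 48 at ERT9 and 2 of 46 at AT3G30844, against 2.15% of bins in the genome. By the same measure, NRPD1ΔCTD was above nrpd1-3 in 3, 3, 2 and 2 bins, against 1.37% of all bins, each of them a lost bin. It was below NRPD1FL in 3, 2, 1 and 0 bins, against 0.62%. The longest run of adjacent lost bins at each locus is called its run below. Since runs were chosen by the loss, their levels in nrpd1-3 and NRPD1FL are a description.

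**Figure D1:**
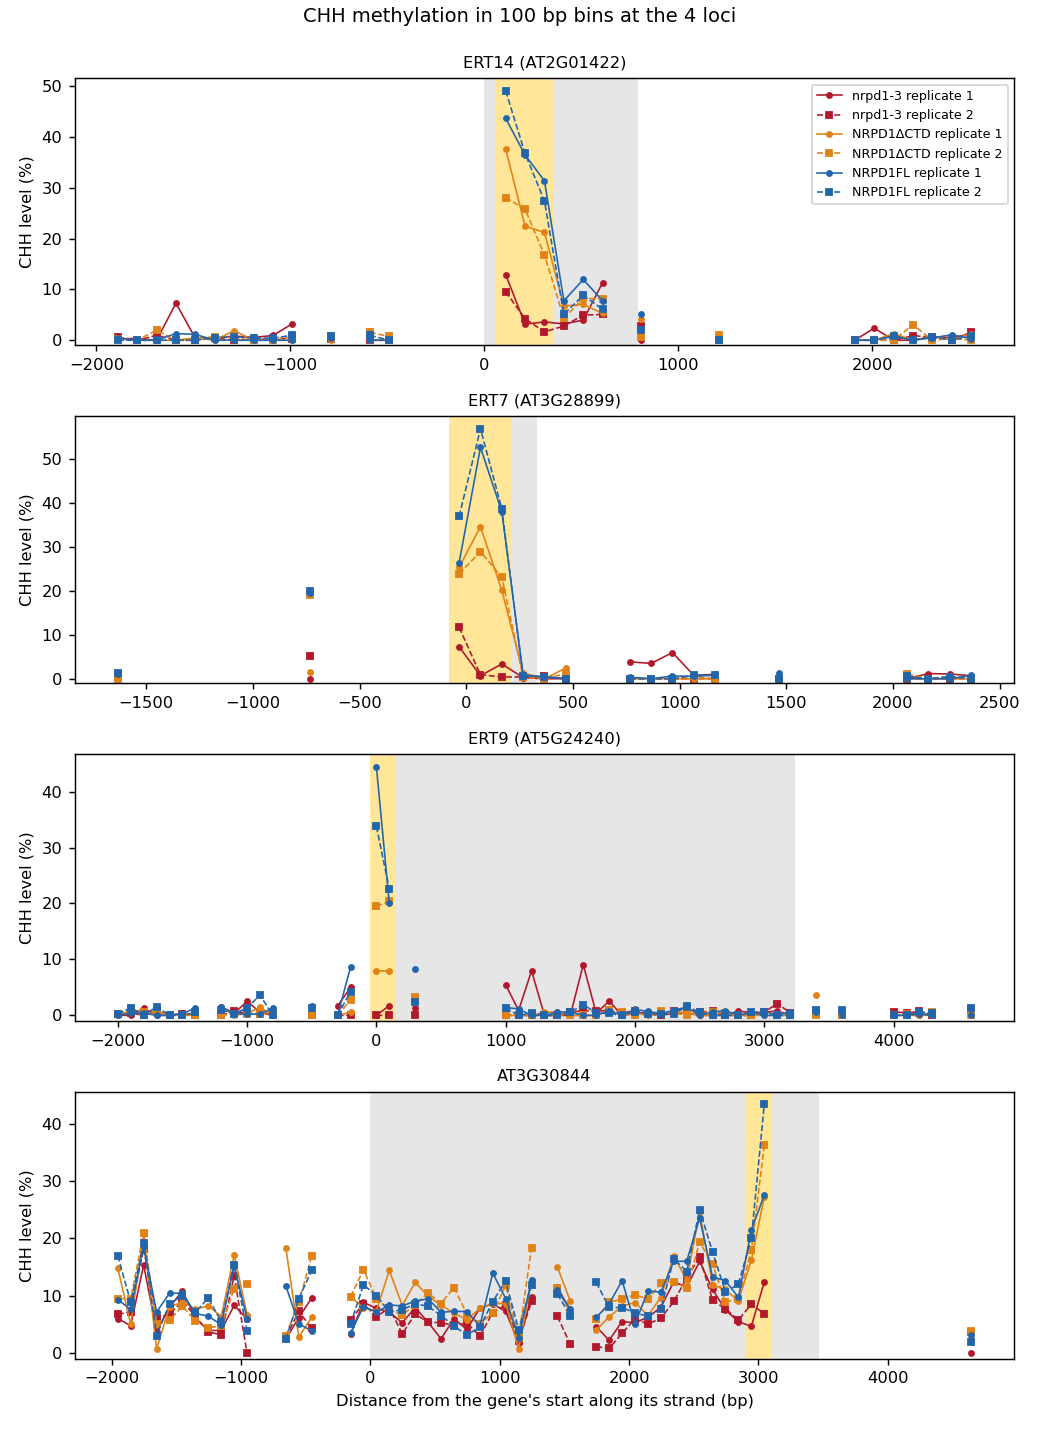
CHH level (%, y axis) in 100 bp bins against distance from the gene's start along its strand (bp, x axis), 1 panel per locus and 1 line per library (red nrpd1-3, orange NRPD1ΔCTD, blue NRPD1FL; circles replicate 1, squares replicate 2). Grey marks the gene and yellow the run of lost bins, which lies near the gene's start at ERT14, ERT7 and ERT9 and toward the gene's end at AT3G30844. There methylation is spread over most of the bins shown. Bins with under 5 listed cytosines in any library are left blank.

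ERT14 is a non-coding RNA gene on the plus strand of chromosome 2, at positions 183940 to 184734. The nearest gene, PIN4 (an auxin efflux carrier), lies on the minus strand 175 bp away, so the genes are divergent. In 1 of the annotated transcripts an intron is removed after the exon at 183940 to 184205. The run covered 184001 to 184300, which is 61 to 360 bp downstream of the gene's start. It therefore held most of that exon and the start of the intron. Its upstream end was not resolved, because no bin from 183501 to 184000 had enough listed cytosines in every library. In the adjoining bin, 183901 to 184000, only NRPD1FL replicate 2 (84.0%) and NRPD1ΔCTD replicate 1 (31.0%) had listed cytosines, 5 in each.

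In the ERT14 run the NRPD1FL libraries were at 36.2% and 35.4%, those of NRPD1ΔCTD at 26.8% and 22.0%, and those of nrpd1-3 at 6.08% and 4.66%. No libraries of different groups overlapped, and NRPD1ΔCTD lay between the others. The share of the difference between nrpd1-3 and NRPD1FL that was present in NRPD1ΔCTD, called the regained share here, was 62.4% ± 11.2 (SD, n = 2). Every value with ± below is likewise a mean and SD over the 2 libraries of a group. For the regained share, each NRPD1ΔCTD library was set against the means of nrpd1-3 and NRPD1FL, so its SD leaves out the spread of those groups. Since the runs were chosen by the difference between those groups, the share is a description too. Within the run, NRPD1FL had its highest bin at 184001 to 184100, at 46.3% ± 3.82, followed by 36.6% and 29.4% in the next bins. NRPD1ΔCTD had 32.9%, 24.1% and 19.0% in the same bins, so levels fell from the first bin to the last in both groups.

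The ERT14 window with the largest differences, 183801 to 184100, gave nrpd1-3 minus NRPD1FL of -36.4 points (likelihood-ratio test, Benjamini-Hochberg adjusted p = 2.7e-43). NRPD1ΔCTD minus nrpd1-3 was 22.4 points (adjusted p = 1.28e-17), and NRPD1ΔCTD minus NRPD1FL was -14.0 points (adjusted p = 2.05e-06). For NRPD1ΔCTD minus NRPD1FL the unadjusted p was 0.0462 by limma and 0.139 by the F test. In the other comparisons of this window both were under 0.05. This window rested on as few as 11 cytosines in a library, nearly all of them in its last 100 bp. The next window, 184001 to 184300, had at least 47 and was called in all 3 comparisons, at -30.6, 19.1 and -11.5 points. Without NRPD1ΔCTD replicate 2, neither window was called lower in NRPD1ΔCTD than in NRPD1FL. Without NRPD1FL replicate 2, 1 of them was.

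Outside the run, no ERT14 bin with enough listed cytosines in every library had a mean above 10.4% in NRPD1FL. The flanks upstream and downstream were at 0.381% ± 0.0829 and 0.319% ± 0.0416 in NRPD1FL and at 0.668% ± 0.611 and 0.556% ± 0.115 in nrpd1-3. The run held 69.1% and 73.3% of all methylated reads of the interval in NRPD1FL, from 17.4% and 17.7% of its reads. Both strands of the run lost methylation. The gene strand went from 32.0% ± 0.436 in NRPD1FL to 4.21% ± 1.99 in nrpd1-3, and the opposite strand from 43.1% ± 2.63 to 6.85% ± 4.76. NRPD1ΔCTD was at 24.0% ± 5.48 on the gene strand and 25.1% ± 0.00113 on the opposite strand.

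ERT7 is annotated as an uncharacterized protein-coding gene on the plus strand of chromosome 3, at positions 10902184 to 10902515. It lies inside the terminal exon (10902003 to 10902957) of AT3G28900, a ribosomal protein L34e family gene on the minus strand. Methylation there cannot be assigned to either gene. The run covered 10902101 to 10902400, from 83 bp before the start of ERT7 to 216 bp after it, and took in its 5′ untranslated region and the first part of its coding sequence, which starts at 10902327.

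The ERT7 run was at 38.2% and 43.4% in NRPD1FL, 27.2% and 25.3% in NRPD1ΔCTD and 4.45% and 5.90% in nrpd1-3. The groups did not overlap, and the regained share was 59.1% ± 3.73. The bin at 10902201 to 10902300 had the highest NRPD1FL level of the bins named at the 4 loci, 52.6% and 56.9%. The same bin held 34.6% and 28.9% in NRPD1ΔCTD and 0.69% and 0.917% in nrpd1-3. It was the bin in which nrpd1-3 kept least of the methylation in this run. In the adjacent bin, 10902101 to 10902200, nrpd1-3 still had 7.28% and 11.7%. Upstream the end of the run was not resolved: the bin at 10902001 to 10902100 was at 41.0% and 40.7% in NRPD1FL but had 1 or 2 listed cytosines in each library of the other groups. Downstream it ended sharply, and in the next bin, 10902401 to 10902500, all 6 libraries were between 0.246% and 1.33%.

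The ERT7 window at 10902001 to 10902300 gave the largest pooled differences, with nrpd1-3 minus NRPD1FL of -34.7 points (adjusted p = 3.94e-95), NRPD1ΔCTD minus nrpd1-3 of 20.2 points (adjusted p = 2.78e-35) and NRPD1ΔCTD minus NRPD1FL of -14.5 points (adjusted p = 1.65e-21). The window at 10902201 to 10902500 was also called in all 3 comparisons. A separate lost window lay upstream of the gene, at -783 to -484 bp from its start. There the nrpd1-3 libraries were at 0% and 4.49%, and the NRPD1FL libraries at 18.4% and 18.9%. The NRPD1ΔCTD libraries were at 1.08% and 19.1%, so 1 of them was within the range of nrpd1-3 and the other at the level of NRPD1FL. Its gain was called on the pooled reads at 11.1 points (adjusted p = 6.5e-05), but without NRPD1ΔCTD replicate 2 ERT7 had 2 gained windows in place of 3, and without nrpd1-3 replicate 1 also 2. The unadjusted p of this gain was 0.35 by limma and 0.301 by the F test.

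Over the interval, ERT7 had 18.0% ± 0.664 in NRPD1FL and 1.61% ± 0.275 in nrpd1-3. That loss of 16.4 points was the largest of the 4 loci and ranked 189 among 37692 genes with enough cytosines. Interval levels weight each cytosine by its reads. The ERT7 run held 39.97% and 38.09% of the interval's reads in NRPD1FL, against 18.77% and 19.52% in nrpd1-3. The ERT7 interval loss and its rank therefore include this difference in coverage as well as the difference in methylation. The ERT14 run likewise held a larger share of the reads in NRPD1FL than in nrpd1-3. ERT14 ranked 1687 with 6.85 points, AT3G30844 ranked 3893 with 3.50 points and ERT9 ranked 7547 with 1.12 points. The median gene had -0.14 points, so its nrpd1-3 level was slightly above its NRPD1FL level.

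ERT14 and ERT7 proved to be related in sequence. Alignment of their intervals placed ERT14 positions 183973 to 184424 on ERT7 positions 10902040 to 10902500 in the same orientation, with 89.8% identity over 461 columns. A second block, 184518 to 184694 on 10902499 to 10902679, had 89.6% identity. Each run had 1 other copy in the nuclear genome with at least 80% identity over at least 50% of its length. The runs of lost bins, placed separately at each locus, lay on the same stretch of the shared sequence: 267 aligned base pairs fell in both, which is 89% of each run.

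The bases aligned with the ERT7 stretch printed above are shown here with the same marking, to compare the copies in that stretch.
ERT14, chr2:184192-184221, plus strand: CtttttCtttttaGGtttttGctgtttGtC
ERT7, chr3:10902268-10902297, plus strand: CttttCCtttCtaGGtttttGctgCttGtC
From 1 at the 5′ end, with the ERT14 base first, the copies differ by T6C, T11C and T25C, and each change adds a cytosine in ERT7 that reached 20%. The 7 capitals of ERT14 are all capitals in ERT7 as well. The stretch was chosen by its count of capitals in ERT7, which favours changes that add such cytosines there. The 10 capitals of ERT7 against 7 are therefore a description.

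At 67 CHH cytosines that were aligned and had at least 5 reads in every library at both loci, levels in NRPD1FL were at least 20% at 27 in ERT14 and at 26 in ERT7, and at 20 in both. The levels at the 2 loci had a Pearson correlation of 0.867 in NRPD1FL, 0.734 in NRPD1ΔCTD and 0.63 in nrpd1-3, with Spearman values of 0.806, 0.734 and 0.514. These are across cytosines of the same libraries, and neighbouring cytosines share reads. Many of the 67 lie beyond the runs, where most levels were low in both copies. The correlations therefore include the contrast between run and flank, and none was computed within the runs. In NRPD1ΔCTD, 22 and 16 of the 67 reached 20%, and in nrpd1-3 1 at each locus. Beyond the run the copies differed: ERT14 had 27.5% and 38.5% in NRPD1FL at 184410 and 184414, where the aligned ERT7 cytosines were at 0%.

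**Figure D2:**
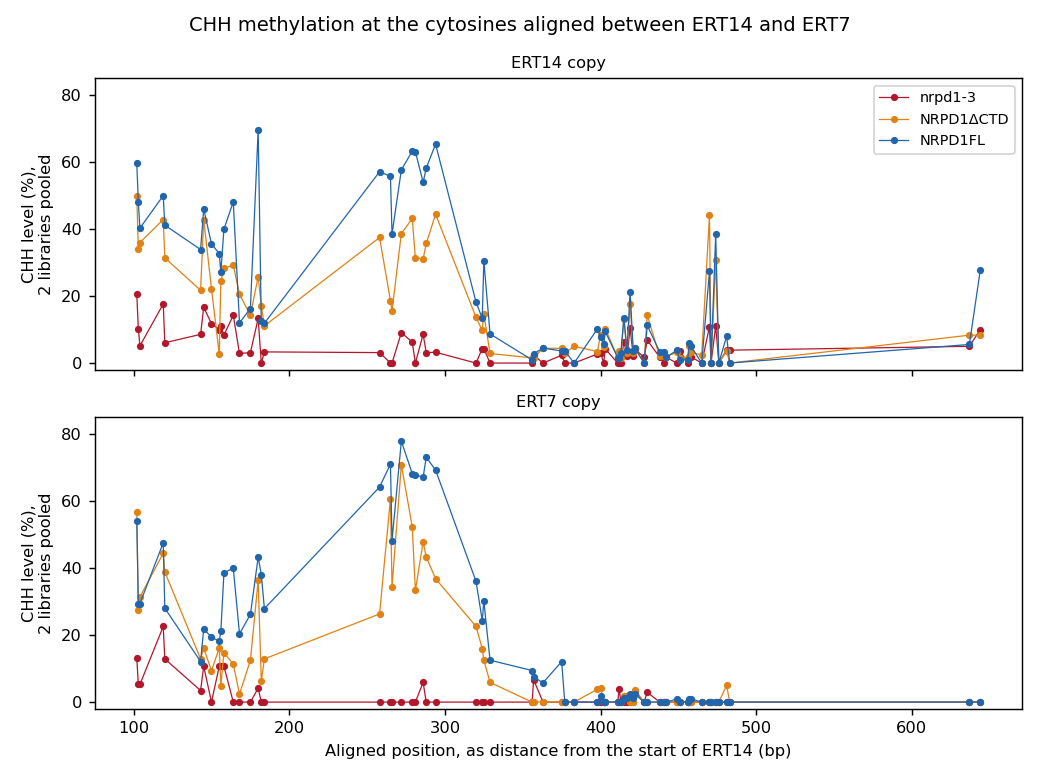
CHH level (%, y axis; reads of the 2 libraries of a group pooled) at the 67 cytosines aligned between ERT14 and ERT7, against distance from the start of ERT14 (bp, x axis); upper panel the ERT14 copy, lower panel the ERT7 copy. In both copies most NRPD1FL levels (blue) between about 260 and 300 bp are above 50%, NRPD1ΔCTD (orange) lies mostly between the other groups, and nrpd1-3 (red) reaches 20% at 1 cytosine per copy.

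Copies this close could exchange reads. The longest stretch without a mismatch in the first block was 43 bp, and 61 or 70 bp after every C was read as T or every G as A, as bisulfite conversion does. Bismark was run with default settings, which keep a read only where its best match is unique. Whether some reads were placed on the wrong copy was not tested.

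ERT9 is annotated as a phosphatidylinositol 4-kinase gamma-like gene on the minus strand of chromosome 5, at positions 8230916 to 8234150, with its start at 8234150. Its run covered 8234001 to 8234200, from 50 bp upstream of the start to 149 bp downstream. Most of it lay in the 5′ untranslated exon (8233961 to 8234150) of the transcript that begins there. Another annotated transcript has its first exon at 8233358 to 8233385, so the run lies upstream of that transcript. The run at ERT9 was thus at the annotated start of the gene. No bin outside the run with enough listed cytosines in every library had a mean above 6.42% in NRPD1FL. Too few cytosines were listed to measure the bins from 8233201 to 8233800, inside the gene, or the bins adjoining the run on either side.

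The ERT9 run had 1.12% in nrpd1-3 replicate 1 and 0 of 168 reads methylated in replicate 2, which allows a level of up to 1.79%. NRPD1ΔCTD had 7.95% and 20%, and NRPD1FL had 37.2% and 26.1%. The groups did not overlap, but the NRPD1ΔCTD libraries were far apart, and the regained shares were 23.8% and 62.6%. The reads were few, with 95 in NRPD1ΔCTD replicate 2 and 151 in replicate 1, and Wilson intervals (95%, counting error only) of 13.2 to 29.1% and 4.60 to 13.4%. In the bin at the start of the gene, 8234101 to 8234200, both nrpd1-3 libraries had no methylated read among 64 and 40, which allows 4.69% and 7.5%. NRPD1ΔCTD had 8.0% and 19.5% in this bin, and NRPD1FL 44.5% and 33.8%.

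The listed cytosines of the ERT9 run differed between libraries, and 3 of its 49 CHH cytosines had 5 reads in all 6. Over those 3 the gain of NRPD1ΔCTD over nrpd1-3 was 2.0 points in place of 13.4. The loss was then -14.6 points in place of -31.1. In nrpd1-3 replicate 2 no cytosine of the gene strand was listed in the run. On the opposite strand nrpd1-3 had 1.31% and 0%, NRPD1ΔCTD 5.0% and 2.5%, and NRPD1FL 20.3% and 21.5%, so on the strand measured in every library NRPD1ΔCTD was nearer to nrpd1-3.

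The ERT9 window at 8234001 to 8234300 gave nrpd1-3 minus NRPD1FL of -25.2 points (adjusted p = 9.43e-37) and NRPD1ΔCTD minus NRPD1FL of -18.3 points (adjusted p = 3.48e-14). NRPD1ΔCTD minus nrpd1-3 was 6.91 points (adjusted p = 5.59e-06), under the 10 points needed for a call, and no ERT9 window was called higher in NRPD1ΔCTD than in nrpd1-3. Without NRPD1ΔCTD replicate 1, 1 was. Neither the loss nor the gap to NRPD1FL was called at ERT9 with cytosines of at least 10 reads or with cytosines listed in all 6 libraries. Fewer ERT9 windows could be tested there, 20 and 27 in place of 30. With cytosines listed in all 6 libraries, the window at 8234001 to 8234300 had too few to be tested. The lack of a call there is therefore not a negative result.

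Over the whole ERT9 interval NRPD1FL had 2.26% and 1.31%, NRPD1ΔCTD 0.521% and 0.554%, and nrpd1-3 0.927% and 0.408%. The gain in the run was thus not visible in the interval, where NRPD1ΔCTD minus nrpd1-3 was -0.13 points. Without nrpd1-3 replicate 1 it was 0.129 points. Outside the run that library had 0.924%, against 0.388% to 0.415% in nrpd1-3 replicate 2 and both NRPD1ΔCTD libraries. The amplicon that the study used for RT-PCR of ERT9, 8231200 to 8231620, lies 2380 bp from the run, toward the other end of the gene.

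AT3G30844 is a pseudogene on the minus strand of chromosome 3, at positions 12602729 to 12606196, with another pseudogene, AT3G30843, 1074 bp away. It differed from the ERT loci in that much of its methylation was present without NRPD1. Over the interval NRPD1FL had 10.3% and 10.5%, NRPD1ΔCTD 10.3% and 9.89%, and nrpd1-3 still 7.12% and 6.62%. NRPD1ΔCTD and NRPD1FL overlapped. A mean of at least 5% in NRPD1FL was found in 41 of its 46 bins, against 23.8% of all bins, and in 6, 4 and 4 bins at ERT14, ERT7 and ERT9. In nrpd1-3 it was 31 bins, against 21.4% of all bins, and 2, 1 and 0 bins at the ERT loci.

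The AT3G30844 run covered 12603101 to 12603300, which is 2896 to 3095 bp downstream of the gene's start. The levels were 24.1% and 30.8% in NRPD1FL, 21.8% and 25.9% in NRPD1ΔCTD and 8.47% and 7.93% in nrpd1-3. Here the NRPD1ΔCTD and NRPD1FL libraries overlapped, and the regained share was 81.0% ± 14.9. The bin at 12603101 to 12603200 was the highest, with 27.5% and 43.4% in NRPD1FL and 27.2% and 36.2% in NRPD1ΔCTD. It adjoined a stretch with too few listed cytosines to measure, so the outer end of the run was not resolved.

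At AT3G30844 the window at 12603001 to 12603300 was the 1 window called. It gave nrpd1-3 minus NRPD1FL of -19.3 points (adjusted p = 3.19e-31) and NRPD1ΔCTD minus nrpd1-3 of 17.4 points (adjusted p = 1.01e-26). NRPD1ΔCTD minus NRPD1FL was -1.89 points (adjusted p = 0.688), and the largest difference between these groups in any window of the locus was 2.99 points (adjusted p = 0.434).

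The run held 6.61% and 9.17% of the methylated reads of the AT3G30844 interval in NRPD1FL, and the difference was spread beyond it. Outside it, levels were 6.83% ± 0.351 in nrpd1-3, 9.63% ± 0.396 in NRPD1ΔCTD and 9.84% ± 0.0243 in NRPD1FL. Of 44 bins outside the run, 42 had a higher mean in NRPD1FL than in nrpd1-3, and in 26 the libraries did not overlap, against 15.4% of all bins in the genome. For NRPD1ΔCTD above nrpd1-3 these counts were 38 and 25, against 14.3%. A second peak lay at 12603601 to 12603700, with 23.5% and 25% in NRPD1FL, 24.6% and 19.3% in NRPD1ΔCTD and 16.0% and 16.8% in nrpd1-3.

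The residual methylation of AT3G30844 was mostly at CAA and CTA sites, which were at 20.2% ± 1.67 in nrpd1-3, 25.7% ± 1.01 in NRPD1ΔCTD and 25.7% ± 0.929 in NRPD1FL over the interval. The other CHH sites were at 2.49% ± 0.144, 4.88% ± 0.00799 and 5.31% ± 0.534. In the genome, CAA and CTA sites were between 14.6% and 16.3% and the others between 2.98% and 3.95% in the 6 libraries. The site types also differed in the runs. In NRPD1FL the ERT14 run had 43.5% at CAA and CTA sites and 31.9% at the others, and the ERT7 run 47.8% and 37.1%. The AT3G30844 run had 43.6%, on 4 or 5 listed sites, and 24.7%, and the ERT9 run 46.8%, on 2 to 7 listed sites, and 28.8%. In nrpd1-3 the same sites were at 7.62% and 4.24% in ERT14, 3.75% and 5.80% in ERT7, 17.6% and 6.51% in AT3G30844 and 0% and 0.68% in ERT9.

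The AT3G30844 run also stood apart in copy number, with 14 other copies in the nuclear genome at 80% identity or more over at least 50% of its length, the closest at 96%. Of these, 9 were at 90% or more. Whether reads of this run were placed on the wrong copy was not tested, and its levels and regained share carry this limit. The ERT9 run had 0 such copies. The RT-PCR primers of AT3G30844 matched the genome exactly at 4 places each and faced each other within 1000 bp at 2 of them. The amplicon in the pseudogene, 12603334 to 12603443, was 33 bp from the run.

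The other amplicons were placed in the same way, since they say which part of each locus the RNA assay of the study covered. The ERT14 amplicon, 184397 to 184684, lay 96 bp downstream of its run. Its forward primer, 184397 to 184426, lies in the intron removed in 1 annotated transcript, so the primers do not read that spliced form. The ERT7 amplicon, 10902330 to 10902515, overlapped its run by 71 bp. It lies wholly inside the terminal exon of AT3G28900 on the other strand. The study primed reverse transcription with random primers, so the position of this product does not assign it to either gene. The ERT7 forward primer, in which capitals mark bases inside the run, is shown because it lies within the methylated stretch, and the ERT14 reverse primer because it has a second match near ERT7.
ERT7 forward, chr3:10902330-10902353, plus strand: GCCAATCTATCCAAGGCAGAGACG
ERT14 reverse, chr2:184650-184684, minus strand: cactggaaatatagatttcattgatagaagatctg
All 24 bases of the former lie in the ERT7 run, and it matched the genome exactly at that 1 place. The latter matched exactly at 2 places, in ERT14 and at 10902635 to 10902669 on chromosome 3, 120 bp beyond the end of ERT7.

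**Figure D3:**
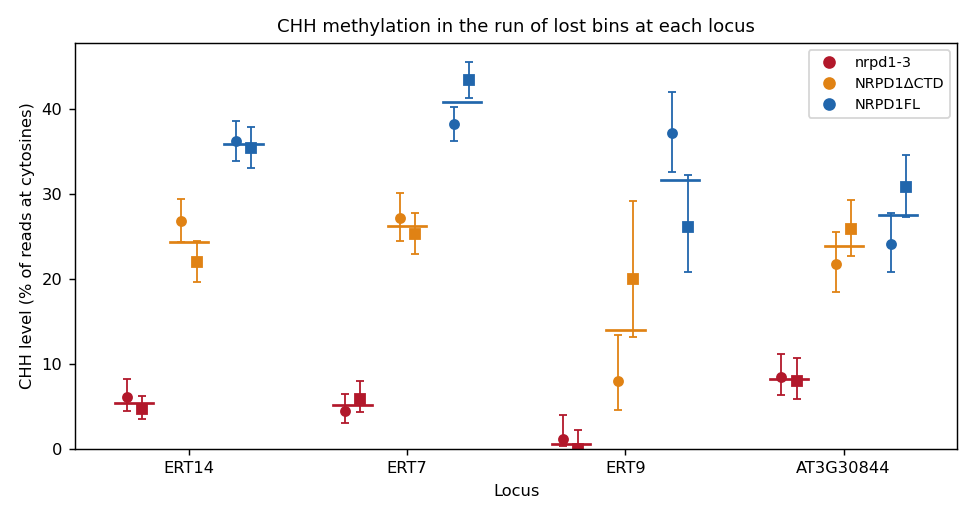
CHH level (% of reads at listed cytosines, y axis) in the run of lost bins at each locus (x axis), with 1 point per library (circle replicate 1, square replicate 2), its 95% Wilson interval, which covers counting error only, and a bar at the group mean. NRPD1ΔCTD (orange) lies between nrpd1-3 (red) and NRPD1FL (blue) without overlap at the 3 ERT loci and overlaps NRPD1FL at AT3G30844.

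Set side by side, the regained share of the runs was 62.4% at ERT14, 59.1% at ERT7, 43.2% ± 27.4 at ERT9 and 81.0% at AT3G30844. With 2 libraries per group the differences between these shares were not tested. Over the 10165 windows of the genome lower in nrpd1-3 than in NRPD1FL the median share was 66.1%, with quartiles of 49.5% and 80.7%. The ERT14 windows (61.6% and 62.6%) and the ERT7 windows (48.2% to 66.6%) fell between or near these quartiles. The ERT9 windows, at 27.4% and 43.1%, were below the lower quartile, and the AT3G30844 window, at 90.2%, above the upper one. The lost windows of the loci had larger losses than the genome median of 17.5 points at ERT14 and AT3G30844, in 2 of 3 at ERT7 and in 1 of 2 at ERT9.

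Interval levels compared over libraries gave exact permutation p-values of 0.333 (two-sided), the smallest that 2 against 2 can give, in 10 of 12 comparisons (0.4 after Benjamini-Hochberg adjustment over the 12). The exceptions were the pairs that overlapped: NRPD1ΔCTD against nrpd1-3 at ERT9 (exact p = 1) and NRPD1ΔCTD against NRPD1FL at AT3G30844 (exact p = 0.667).

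Among other genes linked to this pathway, NRPD1FL minus nrpd1-3 over the interval was 3.40 points at SDC and 2.86 at ALN, both less than at ERT14 and ERT7. Both were more than the 1.12 points at ERT9, and AT3G30844, at 3.50 points, was close to SDC. FWA, QQS and ROS1 were at 0.738, 0.495 and -0.22 points, and TUB8, the control gene outside the pathway, at -0.14. QQS had 9.85% in nrpd1-3 against 10.3% in NRPD1FL.

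Read coverage differed between groups in the ERT7 and ERT14 runs, in the same order as methylation. Reads per listed cytosine in the ERT7 run were 33.6 and 31.8 in NRPD1FL, 15.2 and 18.4 in NRPD1ΔCTD and 9.57 and 11.3 in nrpd1-3. In the ERT14 run they were 26.3 and 24.98 in NRPD1FL, 18.4 and 20.1 in NRPD1ΔCTD, and 13.6 and 15.1 without a transgene. The ERT9 run did not keep this order, with 6.29 and 6.79 reads in NRPD1ΔCTD, fewer than the 6.85 and 7.64 of nrpd1-3, and 9.55 and 9.04 in NRPD1FL. At AT3G30844 the groups overlapped. The ratio of NRPD1FL to nrpd1-3 was 3.13 at ERT7, 1.79 at ERT14, 1.28 at ERT9 and 1.16 at AT3G30844. Its median was 1.24 over the lost windows and 0.986 over all windows tested. The part of coverage in the levels was not tested beyond the cytosines listed in every library, over which the loss was -28.6 points in place of -30.4 at ERT14 and -34.2 in place of -35.6 at ERT7.

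**Figure D4:**
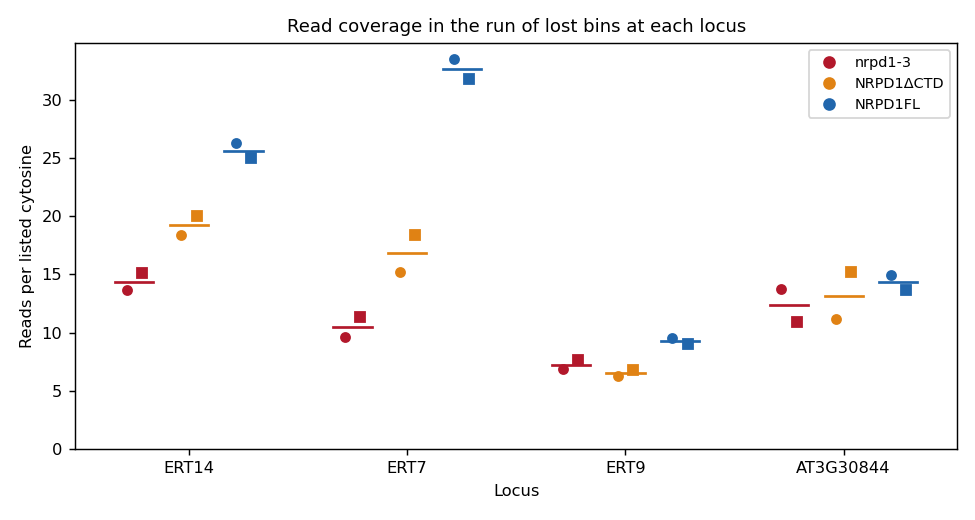
Reads per listed cytosine (y axis) in the run of lost bins at each locus (x axis), with 1 point per library (circle replicate 1, square replicate 2) and a bar at the group mean. At ERT7 the NRPD1FL libraries (blue) are at 33.6 and 31.8 and the nrpd1-3 libraries (red) at 9.57 and 11.3; the groups overlap at AT3G30844.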

How the data were processed

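As the labels and the study's methods state, the authors made TruSeq DNA methylation libraries, demultiplexed them with bcl2fastq 2.16.0.10, trimmed reads with cutadapt 1.9.1 (the first 7 and last 2 bases removed), mapped and deduplicated them on TAIR10 with Bismark 0.16.1 and used methylKit 0.9.5. The deposited coverage is a count of reads per CHH cytosine, 5 or more. The deposited percent columns give the methylated and unmethylated share of these reads. Replicates were deposited separately and are 2 independent biological replicates per the study. Unconverted cytosines count as methylated.

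All listed positions fell on cytosines of TAIR10.1 outside CG, and whether any lay in CHG was not checked. The annotation and 5 nuclear chromosomes of TAIR10.1 were used. A level is methylated reads over all reads at listed cytosines. Windows of 300 bp, step 200 bp, needed 10 cytosines in every library. 417722 of 595726 qualified. Logistic regression on group was adjusted (Benjamini-Hochberg) over all of them. The test was checked on simulated data with no spread between libraries beyond counting error or a small one. The check does not cover windows whose libraries lie further apart. Runs were compared with the genome by blastn 2.17.0. Alternatives covered read and cytosine minimums, shared cytosines, weighting, flanks of 300 bp, bins of 50 bp, a larger difference, other tests (limma), a replicate block and each library left out. The members, gene lists and rules were chosen with earlier results of these data known. Named were the 4 loci, per locus the window with the largest difference in each comparison, the bins with the highest NRPD1FL level or largest gaps, and 6 genes for comparison. The alignment of ERT14 with ERT7, and the 100 bp bins named beside a run, were chosen after their values were seen.

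Python 3.11.15, NumPy, SciPy and R 4.3.3 with limma were used.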

Additional observations from a re-analysis of the deposited data

Results flagged for a closer look

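Read coverage enters the levels as the weight of each cytosine. It was higher in both NRPD1FL libraries than in both nrpd1-3 libraries in the runs of ERT7 and ERT14. The ratios of means were 3.131 and 1.786 for reads per listed cytosine. The part of coverage in the levels was not tested beyond the values given above for cytosines listed in every library. No group had the 4 libraries needed to look for a library far from the others.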

How the results depend on the processing

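Interval levels and run levels kept their direction in 203 of 204 alternative values, the run levels being added after seeing the data. The exception was NRPD1ΔCTD minus nrpd1-3 over the ERT9 interval, which was 0.129 points without nrpd1-3 replicate 1 (range over libraries left out -0.389 to 0.129). The ERT9 loss over the interval shrank from -1.12 to -0.639 points without NRPD1FL replicate 1. With bins of 50 bp the longest runs were 100 bp at ERT7, 50 bp at ERT9 and 100 bp at AT3G30844. With a difference of 20 points the genome had 4116 lost windows, 2070 gained in NRPD1ΔCTD and 250 below NRPD1FL. At the loci this left 0 lost or gained at AT3G30844, 1 gained at ERT14 and at ERT7, 1 lost at ERT9, and 0 below NRPD1FL at ERT14, ERT7 and ERT9. With 20 cytosines per window these genome counts were 5828, 3427 and 1026, with 1 window at ERT14 in each comparison. With 10 reads per cytosine they were 5216, 3027 and 1006, and with cytosines listed in all 6 libraries 1517 windows were below NRPD1FL. ERT9 had 0 windows lost or below NRPD1FL under both. Fewer windows were tested in each of these settings but the first. Limma and the F test called 0 windows in the genome and at every locus, with smallest adjusted p-values of 0.0391 and 0.91. Leaving out 1 library gave 0 to 2 windows below NRPD1FL at ERT14 and 0 to 1 gained at ERT9. A replicate block gave 10161, 6214 and 2267 windows in the genome and changed no count at the loci. The difference between replicates 1 and 2 was not correlated between groups over windows (correlations of -0.00449 to 0.00656). Such correlations cannot see a shift of a whole library, so pairing by replicate number was not settled. The genome level was higher in replicate 1 in all 3 groups: 6.84% against 6.06% in nrpd1-3, 7.11% against 6.71% in NRPD1ΔCTD and 7.27% against 6.95% in NRPD1FL.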
